A study of Mus musculus with 12 samples.

Results

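The genes described here are 40 genes of DNA replication and S phase, followed through activation of mouse CD8 T cells with and without the deubiquitinase Otub1. They are a named list: subunits of the origin recognition complex and the MCM helicase, helicase activators, the sliding clamp and its loader, the replicative polymerases, lagging-strand factors, enzymes of deoxynucleotide supply and the transcription factor E2f1. All 40 were among the 23420 genes of the count files, and all 40 passed the filter on low counts that left 12759 genes for testing. A further 64 genes of the same pathway, named in a second list, were measured alongside them and are given after the 40.

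The libraries formed 4 groups of 3. Naive CD8 T cells were taken from spleens of C57BL/6 mice aged 6 to 8 weeks that carry the OT-I T cell receptor transgene. The wild type (WT) group is OT-I alone; the knockout (KO) group is OTUB1-CD4Cre-OT-I, whose genotype tag reads OTUB1-DKO. CD4-Cre acts in the T cell lineage, so cells of other lineages in these mice keep Otub1. Fresh cells were lysed without culture, and stimulated cells were kept 24 h with plate-bound anti-CD3 and anti-CD28, each at 1 µg per ml. The labels disagree in places: the cell type tag names splenic DCs and the extraction protocol speaks of fresh splenic cells for every library, whereas the design text names naive CD8 T cells. The text speaks of triplicates without saying whether the 3 libraries of a group came from 3 mice, and the p-values speak for the spread among these libraries. In fresh WT, fresh KO and stimulated KO, 1 library carried Y-linked transcripts, unlike the other two, and RNA of at least 2 mice was therefore present in each of these groups; in stimulated WT the spread may be technical.

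Replication starts in steps that cells keep apart in time. In G1, the origin recognition complex with Cdc6 and Cdt1 loads the MCM helicase on DNA. At the entry to S phase, Cdc45, the GINS complex and Mcm10 turn the loaded helicase into a moving fork, where polymerase alpha and primase start strands, the clamp loader places the Pcna ring, polymerases delta and epsilon extend, and Fen1 and Lig1 finish the lagging strand. Naive T cells rest outside the cycle, and after engagement of the T cell receptor they pass through a long first G1 before they divide. Many of these genes are textbook targets of E2F factors, which pocket proteins hold inactive in resting cells and cyclin-dependent kinases release.

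The letters that E2F factors bind stand in the promoters of several members, and the following stretches show where. RefSeq promoter windows (GRCm38.p6, 250 bases before to 50 after each start) were found for 33 of the 40 genes; Gins1, Gins2, Gins4, Mcm4, Pole, Prim2 and Rfc2 had no entry. The E2F-type letters searched were TTTCCCGC, TTTGGCGC and TTTCGCGC on both strands, where matches on opposite strands can overlap. They occurred in 13 of 39 member promoters, 33.3%, against 3.36% of the 12042 promoters of genes tested and 1.84% of all 32851 promoters of the same length. CCAAT, the letters of the NF-Y box, occurred in 59.0% of member promoters and in 37.4% of all, and TTTGAA, the core of the CHR element, in 12.8% and 17.9%; among promoters of genes tested the shares were 37.6% and 12.1%. A match is a description of the letters and not evidence of binding. Before the start and outside exons of the basic GENCODE annotation, Mcm6 had 3 matches, Mcm5 had 2, and Cdc6, Orc1 and Pola1 had 1 each. Printed here are Mcm6, Mcm5 and, of those with 1, the first in alphabetical order, Cdc6 and Orc1. Mcm10 is shown as the member with the highest WT stimulation fold among those with a promoter and no match. Capitals mark E2F-type letters, and each stretch ends at the base before the RefSeq start.
Mcm6: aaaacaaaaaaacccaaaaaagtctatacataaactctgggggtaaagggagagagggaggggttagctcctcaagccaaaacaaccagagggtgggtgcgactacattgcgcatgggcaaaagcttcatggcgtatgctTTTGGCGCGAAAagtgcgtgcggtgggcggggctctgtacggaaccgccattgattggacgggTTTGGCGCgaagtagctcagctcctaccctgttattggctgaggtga
Mcm5: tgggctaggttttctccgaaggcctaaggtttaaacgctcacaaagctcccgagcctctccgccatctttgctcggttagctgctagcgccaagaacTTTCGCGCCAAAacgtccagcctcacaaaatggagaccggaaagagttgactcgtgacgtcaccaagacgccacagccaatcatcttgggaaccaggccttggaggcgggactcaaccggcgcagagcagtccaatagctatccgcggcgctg
Cdc6: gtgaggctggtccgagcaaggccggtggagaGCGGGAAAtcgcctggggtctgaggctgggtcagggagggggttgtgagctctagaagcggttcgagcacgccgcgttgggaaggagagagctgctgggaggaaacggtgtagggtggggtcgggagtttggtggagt
Orc1: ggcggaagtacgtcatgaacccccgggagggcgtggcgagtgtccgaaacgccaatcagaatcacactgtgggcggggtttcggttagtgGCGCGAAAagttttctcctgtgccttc
Mcm10: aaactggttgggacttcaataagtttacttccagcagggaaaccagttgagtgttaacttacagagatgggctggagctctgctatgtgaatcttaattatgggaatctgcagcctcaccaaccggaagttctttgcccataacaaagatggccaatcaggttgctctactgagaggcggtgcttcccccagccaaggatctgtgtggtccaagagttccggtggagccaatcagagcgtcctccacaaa
The Mcm6 stretch is chr1:128359706-128359955 on the minus strand, with matches that begin at -110, -106 and -47 from the start, the first pair overlapping on opposite strands. The Mcm5 stretch is chr8:75109259-75109508 on the plus strand, with overlapping matches at -153 and -149. The Cdc6 stretch, chr11:98907982-98908150 on the plus strand, lies in the first intron of a longer Cdc6 transcript and has 1 match at -138. The Orc1 stretch, chr4:108579337-108579453 on the plus strand, has 1 match at -27, and non-coding Orc1 transcripts of the full annotation begin inside it. The Mcm10 stretch is chr2:5012792-5013041 on the minus strand.

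The 12 libraries held 15064488 to 25920035 counts in genes and 14482 to 15384 genes with a count. Values below are CPM, counts scaled to a common library total, with TMM factors of 0.988 to 1.013. TMM scaling assumes that most genes are level between libraries. Between fresh and stimulated WT, only 2264 of 12759 genes were not called at an edgeR adjusted p under 0.05. CPM values are shares of a library total and give no amount of RNA per cell. Otub1 stood at 45.1 to 72.6 CPM in fresh WT, 25.4 to 28.8 in fresh KO, 85.6 to 100.1 in stimulated WT and 13.8 to 16.2 in stimulated KO, so KO libraries lay below WT libraries in both states. Transcripts of Y-linked genes were above 1 CPM in 3 libraries only: fresh WT replicate 3, fresh KO replicate 2 and stimulated KO replicate 3. The summed CPM of 8 CD8 T cell markers was 6069 to 6536 in fresh and 2171 to 2551 in stimulated libraries. The summed dendritic cell list was 163 to 223 CPM in fresh and 440.1 to 560.2 in stimulated libraries. From fresh to stimulated WT, Irf8 averaged 86.2 and 431 CPM, Batf3 2.62 and 16.6 and Zbtb46 3.84 and 4.61, while the 7 other markers of that list were lower after stimulation, as Clec9a at 20.8 and 0.08 and Itgax at 36.2 and 1.52.

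Every member was higher in stimulated than in fresh cells in both genotypes, which is what a rise means below. No group was cultured without stimulation, so effects of culture and of stimulation cannot be told apart. The 40 together took 0.193% of counts in fresh WT, 0.198% in fresh KO, 0.759% in stimulated WT and 0.849% in stimulated KO. In WT, 40 of 40 were called higher (edgeR adjusted p under 0.05, the threshold used throughout), where 40.8% of all genes tested were called higher; in KO it was 40 of 40, against 41.7% of all genes. The median log2 fold change was 2.21 in WT, 4.62-fold, and 2.36 in KO, 5.14-fold, against -0.03 and -0.02 for all genes tested. In WT, 35 members rose at least 2-fold, 24 at least 4-fold, 7 at least 8-fold and 2 at least 16-fold; the KO counts were 35, 26, 8 and 2. In bulk RNA, fewer cells of a type and less RNA per cell cannot be told apart, and the same holds for more cells in cycle and more RNA in each. Over the same contrast, summed B cell markers were 109 to 163 CPM in fresh and 19.5 to 27.7 in stimulated libraries, and summed myeloid markers 33.1 to 69.5 and 0.27 to 1.04; their part in these values was not tested.

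**Figure D1:**
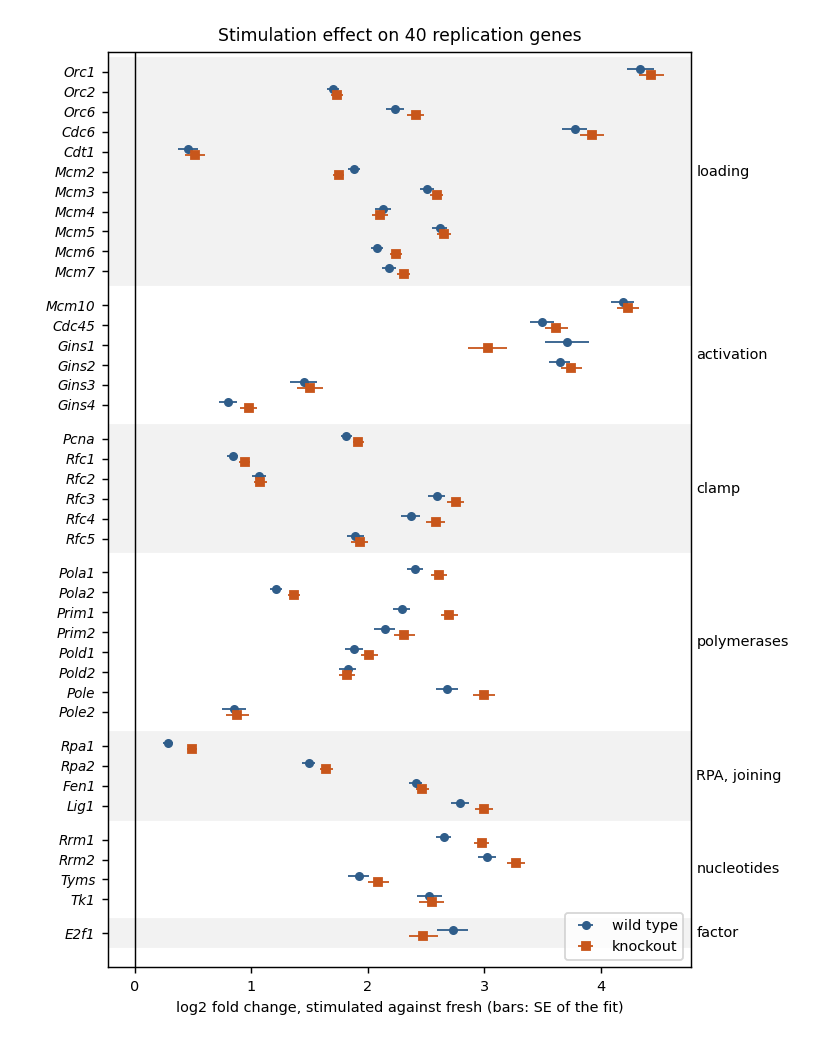
Log2 fold change of each of the 40 genes, stimulated against fresh, on the horizontal axis, in wild type (circles) and knockout (squares), with the standard error of the edgeR fit as bars (n = 3 libraries per group). Genes are grouped by role; all points lie above 0, from 0.28 for Rpa1 to 4.34 for Orc1 in wild type.

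Among the genes of origin recognition and helicase loading, the induction separated the loading factors from each other. Orc1, an ATP-binding subunit of the recognition complex, was low in fresh cells, with 2.85, 2.57 and 2.00 CPM in WT and 2.65, 3.21 and 2.35 in KO. It reached 55.0, 49.1 and 47.2 CPM in stimulated WT and 60.8, 58.9 and 58.6 in stimulated KO. No stimulated library came near a fresh one, and the rise was 20.2-fold in WT, log2 4.34 ± 0.12 (SE, n = 3 per group, edgeR adjusted p = 1.92e-14). Orc2 and Orc6, subunits of the same complex, rose 3.26-fold and 4.71-fold in WT. Cdc6, which works with the complex to load MCM, rose 13.7-fold. Its loading partner Cdt1 moved least of this group: 65.5, 62.1 and 61.7 CPM in fresh WT, 64.4, 72.8 and 59.9 in fresh KO, 89.3, 86.3 and 84.6 in stimulated WT and 101.4, 79.9 and 100.5 in stimulated KO. All stimulated Cdt1 values exceeded all fresh ones, at 1.37-fold in WT, log2 0.46 ± 0.08 (edgeR adjusted p = 0.000124).

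The 6 subunits of the MCM ring, which work in equal numbers, rose by similar factors, from 3.68-fold for Mcm2 to 6.13-fold for Mcm5 in WT and from 3.36-fold to 6.29-fold for the same genes in KO. Their summed level went from 643 ± 35.7 CPM (SD, n = 3) in fresh WT to 3039 ± 138 in stimulated WT, and from 674 ± 12.1 to 3291 ± 126 in KO. Divided by the length of the transcript with the longest coding sequence, the fresh WT subunits lay between 27.6 CPM per kb for Mcm5 and 46.3 for Mcm6, whereas Orc1 had 0.82, Cdc6 2.66, Mcm10 1.32 and Cdc45 3.92 CPM per kb. In stimulated WT they lay between 114.6 for Mcm2 and 195.6 for Mcm6. The ratio of the highest to the lowest subunit was 1.68 in fresh WT, 1.70 in fresh KO, 1.71 in stimulated WT and 1.95 in stimulated KO, and in stimulated cells Mcm2 was the lowest of the 6 in both genotypes.

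**Figure D2:**
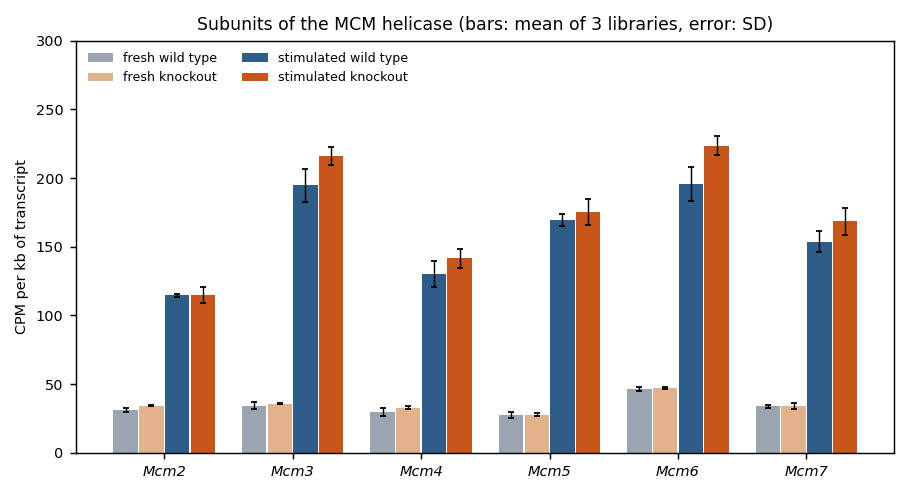
Level of each subunit of the MCM helicase in CPM per kb of transcript (vertical axis) in the 4 groups; bars are means of 3 libraries and error bars the SD. Every subunit is several-fold higher after stimulation, and Mcm6 is the highest subunit in all 4 groups.

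The helicase activators had the highest median induction of any role, 11.9-fold in WT and 10.0-fold in KO. Mcm10, which helps to start the assembled helicase, had 7.29, 6.58 and 5.46 CPM in fresh WT, 7.17, 6.33 and 7.48 in fresh KO, 128, 111 and 115 in stimulated WT and 140, 122 and 132 in stimulated KO. The rise was 18.2-fold in WT, log2 4.19 ± 0.10 (edgeR adjusted p = 5.98e-15). Cdc45 rose 11.3-fold in WT. The 4 GINS subunits, which form 1 complex, did not rise by like factors. Gins1 and Gins2 rose 13.1-fold and 12.5-fold in WT, but Gins3 rose 2.74-fold and Gins4 1.74-fold. Gins4 stood at 21.2, 24.1 and 25.6 CPM in fresh WT and 22.7, 23.2 and 25.2 in fresh KO, against 42.4, 42.3 and 38.7 in stimulated WT and 46.9, 45.3 and 47.9 in stimulated KO. Per length, it was the most abundant GINS transcript in fresh WT, at 17.5 CPM per kb against 1.67 for Gins1, 0.90 for Gins2 and 3.14 for Gins3. In stimulated WT the levels lay closer, at 30.5, 22.3, 11.3 and 8.62 CPM per kb. Of the exon length of Gins2, 67.3% overlaps the opposite-strand gene Gse1, and the strand setting of the counting is not given in the sources used here, so reads of the 2 genes cannot be told apart there.

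In the clamp and clamp loader, Pcna was the most abundant member per length in every group, with 120.4 CPM per kb in fresh WT and 424 in stimulated WT, and rose 3.52-fold in WT. The 5 loader subunits again differed. Rfc3 rose most, from 9.53, 9.01 and 8.25 CPM in fresh WT to a mean of 53.9 ± 1.34 (SD, n = 3), 6.02-fold. Rfc1, the large subunit, rose least, from 115, 114 and 114 CPM in fresh WT and 117, 117 and 107 in fresh KO to 219, 197 and 199 in stimulated WT and 221, 218 and 218 in stimulated KO. That was 1.79-fold in WT, log2 0.84 ± 0.05 (edgeR adjusted p = 1.61e-10). Rfc2, Rfc4 and Rfc5 rose 2.09-fold, 5.17-fold and 3.72-fold.

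Among polymerases and primase, the catalytic subunit had a larger fold than its partner for polymerases epsilon and alpha. Pole, the catalytic subunit of polymerase epsilon, had 39.3, 37.6 and 32.7 CPM in fresh WT, 35.98, 37.1 and 33.1 in fresh KO, 275, 220 and 210 in stimulated WT and 298, 267 and 284 in stimulated KO, a 6.41-fold rise in WT. Its partner Pole2 had 21.7, 21.4 and 16.9 CPM in fresh WT, 23.2, 19.95 and 20.4 in fresh KO, 40.5, 32.8 and 35.5 in stimulated WT and 41.2, 36.9 and 38.7 in stimulated KO, a 1.81-fold rise. The intervals were far apart: the 95% interval of the WT log2 fold change was 2.46 to 2.90 for Pole and 0.62 to 1.09 for Pole2. Pola1, the catalytic subunit of polymerase alpha, rose 5.29-fold and its partner Pola2 2.32-fold, with 95% intervals of 2.24 to 2.56 and 1.09 to 1.34 on the log2 scale. In polymerase delta, Pold1 and Pold2 rose 3.69-fold and 3.55-fold, with intervals that overlap. The primase subunits Prim1 and Prim2 rose 4.89-fold and 4.43-fold.

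Single-strand binding and lagging-strand joining held the smallest induction of the 40. Rpa1, the large subunit of the single-strand binding protein, was already at 217, 213 and 213 CPM in fresh WT and 214, 210 and 206 in fresh KO. It rose 1.22-fold in WT, log2 0.28 ± 0.04 (edgeR adjusted p = 1.5e-05), and 1.41-fold in KO. Rpa2, its smaller partner, rose 2.82-fold in WT. The flap nuclease Fen1 rose 5.32-fold. Lig1, the ligase that seals the lagging strand, rose from 38.7, 36.1 and 34.1 CPM in fresh WT and 39.0, 38.1 and 36.6 in fresh KO, 6.94-fold in WT and 8.00-fold in KO.

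The enzymes of nucleotide supply rose as a group, between 3.79-fold and 8.13-fold in WT. Rrm2, the regulated subunit of ribonucleotide reductase, had 27.1, 29.7 and 25.8 CPM in fresh WT and 31.4, 28.1 and 30.5 in fresh KO, and rose most of them, log2 3.02 ± 0.08 in WT. Its large subunit Rrm1 rose 6.29-fold and thymidine kinase, Tk1, 5.78-fold. Thymidylate synthase, Tyms, rose least, from 18.2, 20.8 and 19.9 CPM in fresh WT and 19.4, 23.2 and 20.3 in fresh KO to 82.0, 68.6 and 72.6 in stimulated WT and 91.3, 80.6 and 95.9 in stimulated KO. E2f1 itself had 10.6, 10.8 and 7.39 CPM in fresh WT, 12.4, 11.7 and 15.05 in fresh KO, 70.6, 65.3 and 56.7 in stimulated WT and 74.1, 67.3 and 76.1 in stimulated KO. Its rise was 6.62-fold in WT, log2 2.73 ± 0.13, and 5.57-fold in KO, log2 2.48 ± 0.12.

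Members that were low in fresh cells tended to rise more. Across the 40 genes, CPM per kb in fresh KO and the log2 fold change of stimulation in WT had a Spearman rho of -0.593. The libraries differ, but levels per gene were close in fresh KO and fresh WT, and fresh WT is the base of the fold. A negative rho can arise from that alone. The genes also share depth and transcript lengths, so it is given as a description. With the same limit, the 20 members with the lower fresh KO level had a median WT rise of 5.90-fold and the other 20 of 3.68-fold. Members with and without E2F-type letters both rose: the median WT rise was 5.29-fold for the 13 genes with a match and 4.22-fold for the 20 genes with a promoter and no match. Mcm10, shown because it rose most among members with a promoter and no match, rose 18.2-fold, and Mcm6, with 3 matches, 4.23-fold. Orc1 and Cdc6, with 1 match each, rose 20.2-fold and 13.7-fold.

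The comparison of stimulated KO with stimulated WT asks how loss of Otub1 bears on this program once it is running. In stimulated KO, 10 of the 40 genes were called higher and none lower, and neither DESeq2 nor limma-voom called any lower. The 10 were the loading factors Orc6, Cdc6 and Mcm6, the activator Cdc45, the loader subunit Rfc3, Rpa1, Fen1 and Lig1 of the lagging-strand group, and both ribonucleotide reductase subunits, Rrm1 and Rrm2. Of all genes tested, 5.08% were called higher and 4.22% lower. The changes were small: the median over the 40 was log2 0.18, 1.13-fold, against -0.00 for all genes tested, the largest was 1.29-fold for Rrm2, and no member reached 1.5-fold. All 40 estimates were above 0, against 6219 of 12759 for all genes. Members moved together from library to library, as given below, so the 40 are not separate observations. The lowest estimate, that of Mcm2, passed below 0 with upper-quartile scaling and with scaling by library size alone. At an unadjusted p under 0.05, 25 members were higher and none lower, against 12.8% and 10.9% of all genes. All 3 KO libraries exceeded all 3 WT libraries for 18 members and lay below them for none, where 14.3% and 13.1% of all genes did so.

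**Figure D3:**
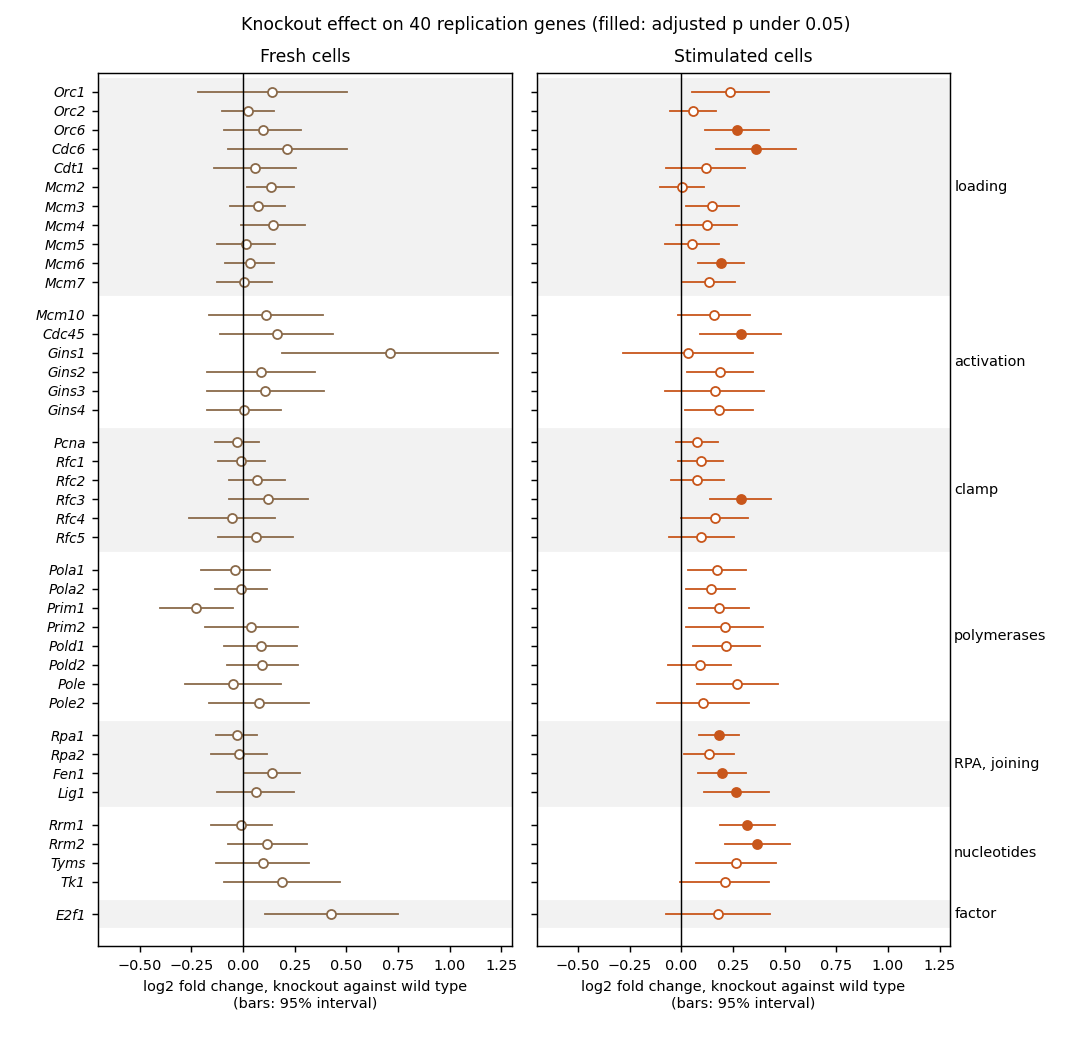
Log2 fold change of knockout against wild type (horizontal axis) for the 40 genes in fresh cells (left) and stimulated cells (right), with the 95% interval of the edgeR fit (n = 3 libraries per group); filled points have an adjusted p under 0.05. In stimulated cells 10 points are filled and all 40 lie above 0; in fresh cells none is filled.

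Nucleotide supply had the highest median difference of the roles, log2 0.29, with Rrm2 first of the 40 and Rrm1 behind Cdc6. Rrm2 had 247, 213 and 214 CPM in stimulated WT and 298, 265 and 307 in stimulated KO. Its log2 fold change was 0.37 ± 0.07 (SE, n = 3 per group, edgeR adjusted p = 0.00415). Rrm1 had 409, 346 and 355 CPM in stimulated WT and 467, 454 and 466 in stimulated KO, log2 0.32 ± 0.06 (edgeR adjusted p = 0.00349). For both genes every KO library lay above every WT library, and WT replicate 1 was the WT library nearest to KO. Rrm1 and Rrm2 were the only members that kept their call in all 14 alternative fits. Tyms and Tk1 had log2 estimates of 0.26 and 0.21 and were not called (edgeR adjusted p = 0.063 and 0.186).

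In lagging-strand processing, 3 of 4 genes were called. Rpa1 had 273, 253 and 256 CPM in stimulated WT and 306, 286 and 295 in stimulated KO, log2 0.18 ± 0.04 (edgeR adjusted p = 0.0138). Fen1 had 154, 146 and 139 in WT and 172, 159 and 172 in KO, log2 0.20 ± 0.05 (edgeR adjusted p = 0.0219). Lig1 had 287, 240 and 229 in WT and 317, 299 and 294 in KO, log2 0.27 ± 0.07 (edgeR adjusted p = 0.0243). The groups did not overlap for any of the 3, though the lowest KO value of Lig1 was close to WT replicate 1. The annotated exons of Fen1 are overlapped over 84.2% of their length by opposite-strand genes, of which the genes in the count files account for 5.37%. Rpa2 was not called, with log2 0.13 (95% interval 0.01 to 0.26).

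Helicase loading gave 3 calls of 11. Cdc6 had 104, 91.1 and 86.3 CPM in stimulated WT and 128, 112 and 121 in stimulated KO, log2 0.36 ± 0.08 (edgeR adjusted p = 0.0145). Orc6 had 77.0, 67.0 and 69.7 in WT and 87.01, 82.8 and 87.8 in KO, log2 0.27 ± 0.07 (edgeR adjusted p = 0.0207). Mcm6 had 611, 553 and 544 in WT and 667, 656 and 628 in KO, log2 0.19 ± 0.05 (edgeR adjusted p = 0.0221). None of the 3 genes overlapped between the groups, and WT replicate 1 was again the highest WT library for each. The other MCM subunits were not called. Mcm2, at 382, 389 and 388 CPM in WT and 408, 368 and 385 in KO, had an estimate of 0.00 with a 95% interval of -0.10 to 0.11. Mcm5 had 0.05 (-0.08 to 0.18), Mcm7 0.13, Mcm4 0.12 and Mcm3 0.15. Orc1 had 0.24 and did not overlap between groups, but was not called (edgeR adjusted p = 0.0837), and Orc2 and Cdt1 had 0.06 and 0.12.

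The activators and the clamp loader gave 1 call each. Cdc45 had 106, 89.7 and 88.4 CPM in stimulated WT and 124, 110 and 113 in stimulated KO, log2 0.29 ± 0.08 (edgeR adjusted p = 0.045). Rfc3 had 54.7, 54.7 and 52.4 in WT and 65.1, 63.7 and 68.3 in KO, log2 0.29 ± 0.06 (edgeR adjusted p = 0.0112). The 3 WT libraries of Rfc3 lay close together and well below the KO libraries. Mcm10 and the 4 GINS genes had estimates from 0.03 for Gins1 to 0.19 for Gins2, and Pcna had 0.07 (95% interval -0.03 to 0.18). None of the 8 polymerase and primase genes was called, although 6 had an unadjusted p under 0.05; their estimates ran from 0.09 for Pold2 to 0.27 for Pole (edgeR adjusted p from 0.0604 to 0.559). E2f1 had 0.18 (95% interval -0.08 to 0.43).

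**Figure D4:**
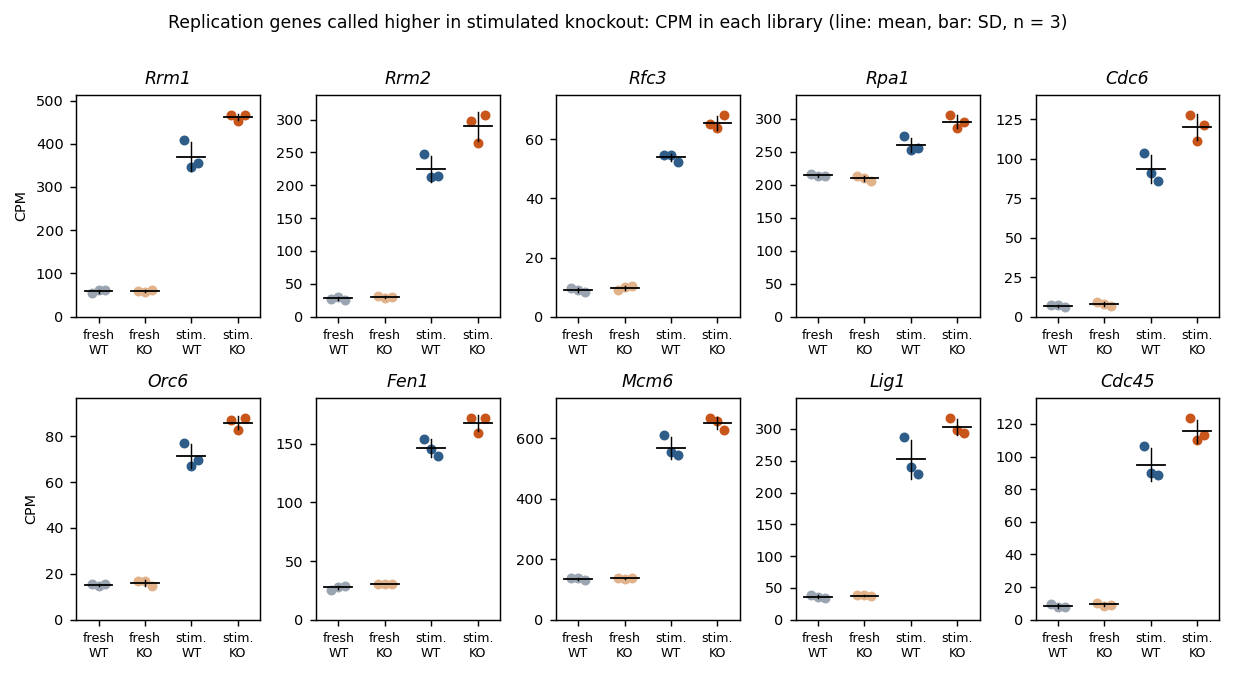
CPM in each library (vertical axis, starting at 0) of the 10 genes called higher in stimulated knockout, in fresh and stimulated wild type (WT) and knockout (KO); points are libraries, the line is the mean and the bar the SD of 3. The fresh groups lie together, and in stimulated cells every knockout point is above every wild-type point.

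The count of calls rested on single libraries. Without stimulated WT replicate 1 it was 16, without WT replicate 2 it was 3, without WT replicate 3 it was 2, and without KO replicate 1 it was 3; Rrm1 and Rrm2 were called in each of these fits. Between 38 and 40 of the 40 estimates stayed above 0 in the fits that left out 1 library, with Mcm2 or Gins1 as the exceptions. Calls over all genes moved with it, from 648 to 796, 373, 258 and 474 higher. Stimulated WT replicate 1 had the highest value of its group for 37 of the 40 members, and stimulated KO replicate 2 the lowest of its group for 34. Relative to the mean of the 3 stimulated WT libraries, the median member stood at 1.08, 0.97 and 0.96 in the WT libraries and at 1.16, 1.07 and 1.14 in the KO libraries. The lowest KO library and the highest WT library were thus level by this measure. WT replicate 1 lay below all 3 KO libraries for 20 members, WT replicate 2 for 33 and WT replicate 3 for 35. Summed over the 40 genes, stimulated WT had 8084, 7384 and 7299 CPM and stimulated KO 8756, 8152 and 8559, which do not overlap. Without the 3 libraries that carry Y-linked transcripts, 6 members were called higher.

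**Figure D5:**
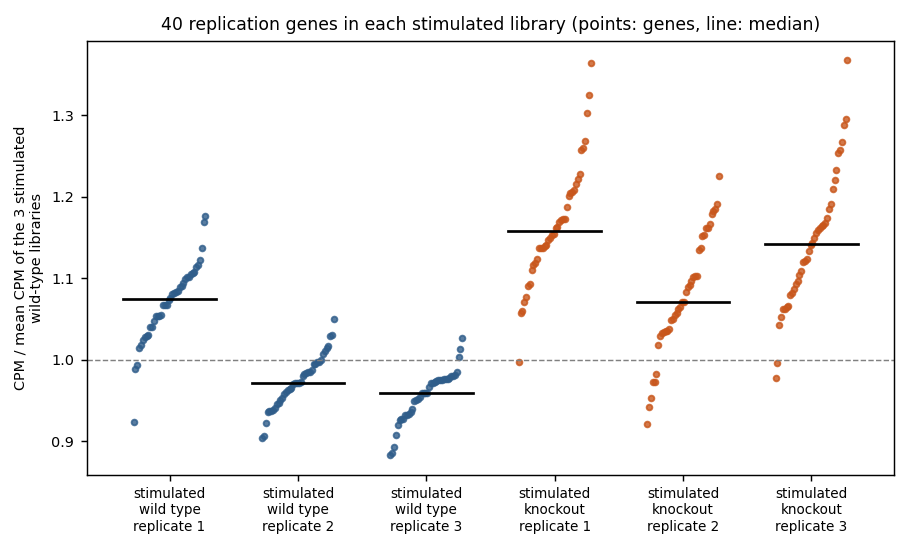
CPM of each of the 40 genes divided by its mean over the 3 stimulated wild-type libraries (vertical axis), in each stimulated library; points are genes and the line is their median. The medians are 1.08, 0.97 and 0.96 in wild type and 1.16, 1.07 and 1.14 in knockout, and wild-type replicate 1 stands level with knockout replicate 2.

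Marker lists were also compared between the stimulated groups. The summed CD8 T cell markers were 2389 to 2551 CPM in stimulated WT and 2171 to 2320 in stimulated KO. Of this list, Thy1 averaged 477 CPM in stimulated WT and 602 in stimulated KO, while every other marker averaged lower in KO. The summed dendritic cell list was 440.1 to 483 and 534 to 560.2, of which Irf8, also expressed by activated T cells, averaged 431 and 501 and Batf3 16.6 and 32.2, while Itgax, Flt3, Clec9a, Xcr1 and Siglech each averaged under 2 CPM in both groups. Summed B cell markers overlapped, at 22.8 to 27.7 CPM in stimulated WT and 19.5 to 25.2 in stimulated KO. The part of these markers in the replication gene values was not tested.

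In fresh cells, the comparison of KO with WT asks whether the difference was present before stimulation. No member was called in either direction by edgeR, where 0.98% of all genes were called higher and 0.219% lower. At an unadjusted p under 0.05, 5 of the 40 members were higher and 1 lower, against 7.57% and 6.56% of all genes. DESeq2 called 1 member, Gins1, and limma-voom none. The median estimate was log2 0.07, with 30 of 40 above 0, against -0.00 and 6363 of 12759 for all genes. All 3 KO libraries exceeded all WT libraries for 6 members, namely E2f1, Mcm2, Mcm4, Fen1, Pold2 and Rfc2, and lay below them for 1, Prim1, where 10.6% and 9.4% of all genes did so. Gins1 had the smallest p of the 40. It had 1.40, 2.32 and 1.73 CPM in fresh WT and 3.17, 2.08 and 3.88 in fresh KO, log2 0.71 ± 0.23 (edgeR adjusted p = 0.162). Its groups overlapped through KO replicate 2, and without that library, 1 of the 3 with Y-linked transcripts, it was called (log2 0.94, edgeR adjusted p = 0.0355). E2f1, with 10.6, 10.8 and 7.39 CPM in fresh WT and 12.4, 11.7 and 15.05 in fresh KO, had log2 0.43 ± 0.14 (edgeR adjusted p = 0.171). Of the 10 genes called in stimulated cells, the fresh estimates ran from -0.03 for Rpa1 to 0.21 for Cdc6.

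Whether the KO effect differed between stimulated and fresh cells was tested directly as an interaction. Of the 40 genes, 1 was called with a higher effect in stimulated cells and none with a lower one, where 0.698% and 1.56% of all genes were called; at an unadjusted p under 0.05 it was 7 and 1, against 7.6% and 8.75% of all genes, and neither DESeq2 nor limma-voom called any lower. That gene was Prim1, the catalytic subunit of primase. It had 20.1, 18.3 and 19.2 CPM in fresh WT and 16.1, 16.8 and 16.2 in fresh KO, so every fresh KO library was below every fresh WT library. In stimulated cells it had 104, 90.5 and 86.96 CPM in WT and 108, 103 and 108 in KO, where WT replicate 1 lay within the KO range. Its log2 KO effect was -0.23 in fresh and 0.18 in stimulated cells, neither of which was called (edgeR adjusted p = 0.187 and 0.0911). The difference of 0.41 ± 0.10 was called (edgeR adjusted p = 0.0466). The call was lost in 15 of 19 alternatives, with an adjusted p of up to 0.163, including the removal of any 1 of 11 libraries; without stimulated WT replicate 1 it held, and 5 members were called. For the other 39 genes, a larger KO effect after stimulation was not shown in the main edgeR fit. DESeq2 called Prim1, Rrm1 and Rpa1 (DESeq2 adjusted p = 0.0223, 0.0264 and 0.0346), where it called 1.69% of all genes higher, and limma-voom called no member. In edgeR, Rrm1 had the next smallest p of the 40, with effects of -0.01 and 0.32 and a difference of 0.33 ± 0.09 (edgeR adjusted p = 0.0632).

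Of the 64 other pathway genes, stimulation called 59 higher and 4 lower in WT, and 59 and 3 in KO, with a median log2 fold change of 1.44 in WT and 1.56 in KO. The 3 highest WT rises were those of Exo1, a nuclease of replication and repair, at log2 4.05, the helicase Recql4 at 3.44 and Uhrf1, which guides maintenance of DNA methylation behind the fork, at 3.34. The 3 lowest were Rbl2, the pocket protein p130 that holds E2F targets silent in resting cells, at -1.62, the small polymerase delta subunit Pold4 at -0.51, and Samhd1, which degrades deoxynucleotides, at -0.36. In stimulated KO against WT, 10 of the 64 were called higher and 3 lower, where 5.08% and 4.22% of all genes were called. In fresh cells none of the 64 was called by edgeR, DESeq2 or limma-voom. At an unadjusted p under 0.05 in edgeR, 4 were higher there and none lower, against 7.57% and 6.56% of all genes.

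Of those called higher in stimulated KO, the 3 with the smallest adjusted p were Ccne1, Nasp and E2f7. Ccne1, cyclin E1 of the G1 to S transition, had 75.0, 63.6 and 65.5 CPM in stimulated WT and 86.4, 87.1 and 87.2 in stimulated KO, log2 0.35 ± 0.07 (edgeR adjusted p = 0.00759). E2f7, an E2F factor that represses, had 10.5, 10.1 and 8.85 in WT and 15.1, 12.7 and 14.2 in KO, log2 0.52 ± 0.13 (edgeR adjusted p = 0.0196). The histone chaperone Nasp had log2 0.22 ± 0.05 (edgeR adjusted p = 0.0158). All 3 were higher in every KO library than in every WT library.

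The 3 called lower were Samhd1, Rbl2 and E2f5. Samhd1 had 442, 363 and 355 CPM in stimulated WT and 279.9, 286 and 220.3 in stimulated KO, log2 -0.56 ± 0.11 (edgeR adjusted p = 0.00705). Rbl2 had 45.5, 42.3 and 46.3 in WT and 39.0, 35.2 and 38.8 in KO, log2 -0.24 ± 0.06 (edgeR adjusted p = 0.014). E2f5, of the repressor class of E2F factors, had 14.5, 14.3 and 14.3 in WT and 10.9, 11.4 and 11.6 in KO, log2 -0.34 ± 0.09 (edgeR adjusted p = 0.0233). None of these overlapped between the groups. Samhd1 and ribonucleotide reductase act in opposite directions on the deoxynucleotide pool, and their transcripts differed from WT in opposite directions in these libraries. The pool itself was not measured, and an effect on it was not tested. Ccne1 and Samhd1 were the only genes of the 64 that kept their call in all 14 alternative fits. Without stimulated WT replicate 1, 27 of the 64 were called higher, where 6.15% of all genes were. Without WT replicate 2 or WT replicate 3 it was 1, where 2.88% and 1.99% of all genes were called higher. Without KO replicate 1 it was 2 (3.66% of all genes) and without KO replicate 3 it was 3 (3.61% of all genes). Without WT replicate 3 or KO replicate 2, 1 of the 64 was called lower, where 1.98% and 3.25% of all genes were.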

How the data were processed

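RNA of 12 libraries was sequenced, 3 in each of 4 groups. The authors deposited a file of unnormalized gene counts for every library. The mm10 build and the tools TopHat, TopHat2, HTSeq and DESeq2 are named per the submitters' processing notes. Which tool did what, its version, the annotation and the strand setting were not stated there. The 5 HTSeq summary lines, 5.22% to 6.43% of each file's total, were left out.

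Counts were fitted in edgeR 4.0.16 (R 4.3.3): TMM scaling, filterByExpr by group (12759 genes kept), 1 coefficient per group over all 12 libraries, and the quasi-likelihood test. The design left 8 residual degrees of freedom, to which the test adds prior ones shared across genes. The 95% intervals used the 8 alone and are wider than the test implies. For Rfc4 and Tk1 in stimulated KO, the interval includes 0 although the unadjusted edgeR p is under 0.05. P-values were adjusted by Benjamini-Hochberg over all genes tested, and a call is an adjusted p under 0.05. Standard errors are the log2 fold change over the square root of F. Groups came from the labels' source names; replicate numbers follow accession order and pair nothing. Levels per kb used the GENCODE M21 basic transcript with the longest coding sequence. Tested on simulated counts for the stimulated KO comparison (12629 genes), the script recovered 67 of 100 genes changed 1.3-fold and 100 of 100 changed 2-fold, with 10 false calls. Genes were simulated independently, without shifts shared by a library. Smaller folds were not simulated, and the largest member change was 1.29-fold, so these rates do not carry over to the members.

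The 40 members and the other lists were chosen with earlier results of these data known. All members are named by role, with values in every library for those called in stimulated KO, for the highest and lowest WT stimulation fold in each role, for those called in fresh cells or the interaction, and otherwise for the member with the smallest p. Of the other 64 genes, those called in stimulated KO are given, up to 4 in each direction by adjusted p, with the 3 highest and 3 lowest WT stimulation folds; 1 gene that this rule names is not reported here. Alternatives were RLE, upper-quartile and library size scaling, no filter on low counts, DESeq2 1.42.0, limma-voom 3.58.1, a fit of only the groups compared, leaving out each library in turn, leaving out libraries with over 1 CPM of Y-linked transcripts, and a 1.5-fold minimum. Figures were drawn with matplotlib 3.10.9.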

Additional observations from a re-analysis of the deposited data

Results flagged for a closer look

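Prim1 stood out because its KO effect differed between stimulated and fresh cells, by a log2 difference of 0.41 in the interaction test (edgeR adjusted p = 0.0466). Its level was lower in KO in 3 of 3 fresh libraries, as for 9.4% of all genes, and its fresh estimate of -0.23 was not called (edgeR adjusted p = 0.187). Its stimulated estimate of 0.18 was not called either (edgeR adjusted p = 0.0911).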

How the results depend on the processing

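All 80 stimulation calls of the 40 genes held in every alternative fit; with a 1.5-fold minimum 38 of 40 remained in each genotype, without Rpa1 and Cdt1. With upper-quartile scaling the median of all genes in the stimulation contrasts moved by -0.13 in WT and -0.12 in KO, and the member medians were then 2.08 and 2.24. The median KO effect in stimulated cells was 0.13 to 0.22 over the alternatives. The count of members higher in stimulated KO, 10, was 5 when only the groups compared were fitted, 6 without the libraries with Y-linked transcripts, 0 with a 1.5-fold minimum and 2 to 16 when 1 library was left out. The count of other pathway genes higher, 10, was 6 with library size scaling, 20 with limma-voom, 6 with only the groups compared, 6 without the libraries with Y-linked transcripts and 1 to 27 with 1 library left out; the count lower, 3, was 1 to 3 with 1 library left out. Of all genes, the share higher in stimulated KO was 4.60% with library size scaling, 5.89% with limma-voom and 3.78% with only the groups compared. It was 3.95% without the libraries with Y-linked transcripts. With 1 library left out, 1.99% to 6.15% of all genes were called higher and 1.98% to 3.95% lower. In fresh cells, DESeq2 called 1 member, where it called 1.92% of all genes higher, and leaving out 1 library gave 0 to 1. The interaction count, 1, was 0 with RLE or library size scaling, 2 without the filter, 3 with DESeq2, 0 with limma-voom, 0 without the libraries with Y-linked transcripts, 0 with a 1.5-fold minimum and 0 to 5 with 1 library left out. Of all genes, the interaction was called higher for 0.864% without the filter, 1.69% with DESeq2 and 0.247% to 1.18% with 1 library left out. No direction reversed among called genes. The causes of these moves were not tested beyond the fewer samples or genes of each fit. No paired analysis was possible because the labels give no replicate numbers shared between groups.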

Other observations

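The other pathway genes called higher in stimulated KO included E2f8, Slbp, Dck, Uhrf1, E2f3 and Top2a, named here after their values were seen. E2f8, a repressor related to E2f7, had a log2 KO effect of 0.37 in stimulated cells (edgeR adjusted p = 0.0301), and the activator E2f3 had 0.26 (edgeR adjusted p = 0.049). Slbp, which binds histone transcripts, Dck, a salvage kinase for deoxynucleosides, Uhrf1 and topoisomerase Top2a had 0.17, 0.25, 0.30 and 0.31. The deoxynucleoside kinase Dck rose 1.28-fold with stimulation in WT and 1.62-fold in KO, and its KO effect differed between the states by 0.34 (edgeR adjusted p = 0.108).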
